A study of Mus musculus with 4 samples.

Results

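The genes described here encode perforin, granulysin and other parts of the lytic granule: PRF1, GNLY, NKG7, SRGN, CTSW, CST7, FGFBP2, UNC13D, RAB27A and LAMP1. They were found by gene symbol, and each of the 10 matched a single entry among the 59490 genes analysed. The RNA came from blood CD8+ T cells sorted for high CD11a, an integrin chain of antigen-experienced T cells, and the patients received an antibody against the inhibitory receptor PD-1. Per the labels, doses came every 3 weeks and 4 doses made a cycle. Crossing response (responder or non-responder) with time (before or after therapy) gave 4 groups, each holding 1 library. It is not stated whether the libraries from before and after therapy came from the same patients, so a difference between times cannot be told apart from a difference between patients. A PD-1-positive tag appears in the names of the 2 earlier libraries, so the gate may also have differed between the times. A treatment label dates all collections to after a cycle, in conflict with the group label, which was used here.

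Cytotoxic T cells and NK cells store perforin, granulysin and granzymes in secretory lysosomes. When such a cell meets its target, the granules move to the contact site, dock and fuse with the plasma membrane, and perforin opens pores through which granzymes enter the target. The set therefore holds pore-forming and membrane-active cargo (PRF1, GNLY), proteins of the granule membrane and matrix (NKG7, SRGN, LAMP1), a cathepsin and a cystatin (CTSW, CST7), the secreted FGFBP2, which marks terminally differentiated cytotoxic cells, and the docking and priming factors RAB27A and UNC13D.

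Library totals lay between 65500644 and 129773591 counts. Levels are CPM, which are counts scaled to a common library total, after TMM normalisation, a correction for differences in library composition. Intervals are 95% intervals for counting error alone, and a ratio of 1 library to another was not checked on replicates and carries no p-value. They take each count as a separate draw, so copies made when the RNA was amplified may leave them too narrow. All 8 genes listed for the sorted cells, CD3D, CD3E, CD3G, CD247, CD8A, CD8B, ITGAL and PTPRC, were detected in every library. Of these only the CD8 chains and ITGAL, the gene of CD11a, correspond to the sort described above. The CD3D, CD3E and CD3G levels summed to between 1151 and 1839 CPM. The 12 NK cell markers were detected in every library too, and summed to 1229 and 1005 CPM in the responder and to 840 and 1081 CPM in the non-responder libraries. Those of gamma-delta T cells, which also kill, summed to between 418 and 547 CPM. Most of that sum was TRGC1 and TRGC2, while TRDC lay between 25.0 and 93.9 CPM, and TRDV1 and TRDV2 at 9.65 CPM or less. Without TYROBP and FCER1G, which myeloid cells also express and which were set aside after their values were seen, the other 10 NK markers summed to 1113 and 893 CPM in the responder and to 747 and 532 CPM in the non-responder before and after therapy. The 10 did not move as one. NCR1, FCGR3A, NCR3, IL18RAP and S1PR5 were lower after therapy in both the responder and the non-responder, and KLRF1 and NCAM1 were higher in both. SH2D1B, KLRC1 and CD160 were lower in the responder and higher in the non-responder. FCGR3A lay between 140 and 324 CPM and S1PR5 between 103 and 303 CPM, while NCR1 lay between 4.91 and 16.3 CPM and NCAM1 between 4.26 and 10.1 CPM. How much of the marker RNA came from the sorted CD8 cells themselves was not tested. NK cells carry every gene of the set, and the part of RNA from these cells in the levels below was not tested. The 15 monocyte and neutrophil markers, none of them at 0 in any library, summed to 128 and 217 CPM before therapy, and to 1987 CPM (responder) and 9626 CPM (non-responder) after therapy.

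Together the 10 genes made up 0.934% of all counts in the responder (Wilson 95% interval 0.932 to 0.936) and 1.02% in the non-responder library before therapy (1.02 to 1.03). After therapy they made up 0.666% in the responder (0.665 to 0.667) and 0.428% in the non-responder (0.427 to 0.430). The set was thus a smaller share of both libraries from after therapy, and smallest in the non-responder. In bulk RNA, fewer cells of a type and less RNA per cell cannot be told apart. Per kilobase of the gene length given in the files, which is not limited to coding sequence, NKG7 was the most abundant member in both responder libraries and in the non-responder after therapy, at 1749, 1061 and 549 CPM per kilobase. GNLY was the most abundant in the non-responder before therapy, at 1549 CPM per kilobase. NKG7 there ranked 27 among 18824 genes detected at 1 CPM or more in any library, and GNLY 25. The machinery genes were far less abundant. UNC13D lay between 15.1 and 21.2 CPM per kilobase, RAB27A between 11.6 and 41.1, and LAMP1, the least abundant in every library, between 3.55 and 8.15.

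**Figure D1:**
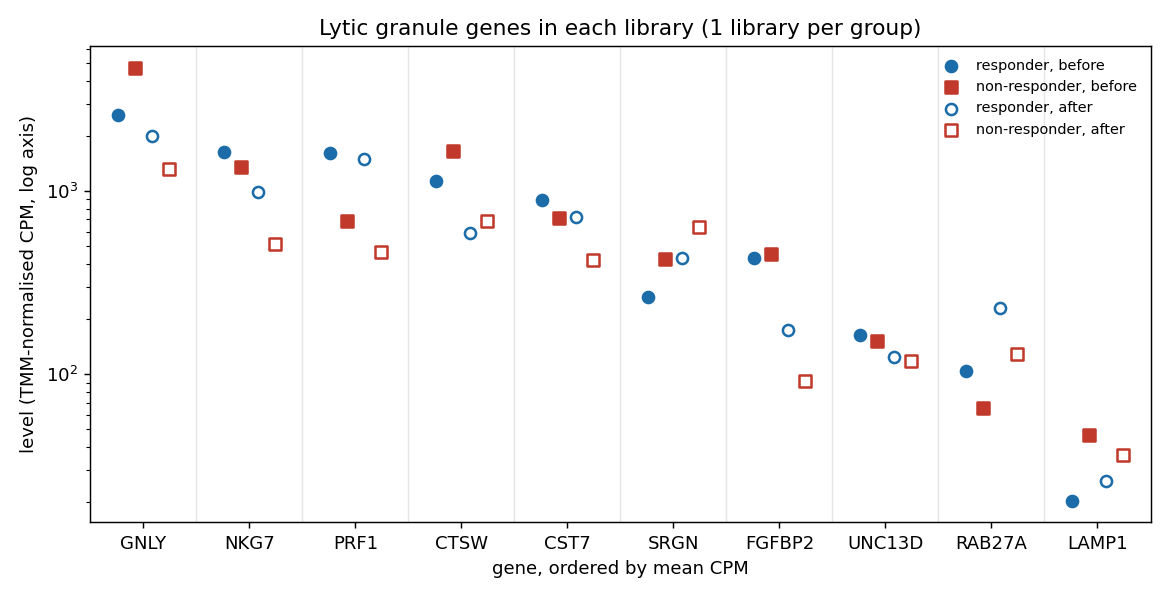
Level of each lytic granule gene in each library, as TMM-normalised CPM on a log axis, with genes ordered by their mean; each point is 1 library, filled before and open after therapy, and there are no error bars because each group holds 1 library. PRF1 lies at 1613 and 1488 CPM in the responder libraries, above 685 and 465 CPM in the non-responder libraries, while GNLY is highest in the non-responder before therapy at 4725 CPM.

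The first comparison set responder against non-responder libraries at each time. PRF1 (ENSG00000180644, hg38 chromosome 10, 70597348 to 70602775), the pore-forming perforin, measured 1613 CPM (responder) and 685 CPM (non-responder) before therapy, then 1488 and 465 CPM after therapy. Both responder libraries lay above both non-responder libraries. The excess in the responder was 2.36-fold before therapy (interval 1.22 to 1.25 around a log2 ratio of 1.24), and 3.20-fold after therapy (interval 1.66 to 1.69 around 1.68). Among the members PRF1 alone exceeded 2-fold in this direction at each time, as did 2.22% of all 13233 genes with at least 5 CPM in any library. With counts scaled to the CD3 chains, the PRF1 log2 ratio was 0.91 before therapy, under 2-fold, and 1.26 after it.

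GNLY (ENSG00000115523, chromosome 2, 85685175 to 85698854), a membrane-permeabilising protein of the saposin-like family that attacks microbes and tumour cells, did not follow PRF1. Its responder level was 2595 CPM before and 2003 CPM after therapy, and its non-responder level was 4725 and 1321 CPM. The non-responder libraries held both the highest and the lowest value. The responder was therefore 1.82-fold lower at first, with a log2 ratio of -0.86 (interval -0.87 to -0.86). After therapy it was 1.52-fold higher, with a log2 ratio of 0.60 (interval 0.59 to 0.61). An opposite direction at the 2 times was seen for GNLY and FGFBP2 among the members, and for 34.3% of all genes with at least 5 CPM in any library.

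NKG7 (ENSG00000105374, chromosome 19, 51371606 to 51372715), a granule membrane protein needed for efficient degranulation, had responder levels of 1635 CPM before and 992 CPM after therapy, and non-responder levels of 1361 and 514 CPM. The responder level was 1.20-fold the non-responder level before therapy, a direction that turned when counts were scaled to the CD3 chains (log2 ratio -0.06), and 1.93-fold higher after therapy. CST7 (ENSG00000077984, chromosome 20, 24949230 to 24959928), the cystatin F that restrains cathepsins in the granule, had responder levels of 896 and 722 CPM and non-responder levels of 715 and 418 CPM at the same times. Its responder libraries both lay above its non-responder libraries, though 722 and 715 CPM differed little and their order turned under scaling by library size or by the CD3 chains. PRF1 and CST7 were the 2 of 10 members with this pattern, which 22.2% of all genes showed.

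FGFBP2 (ENSG00000137441, chromosome 4, 15960243 to 15969309), whose entry overlaps that of PROM1 and may share reads with it, stood at 432 and 452 CPM before therapy, a log2 ratio of -0.06 that turned to 0.02 under library size scaling. After therapy its responder level was 174 CPM and its non-responder level 91.3 CPM, 1.91-fold apart (log2 ratio 0.93, interval 0.90 to 0.96). RAB27A (ENSG00000069974, chromosome 15, 55202966 to 55319113), the small GTPase that docks granules at the membrane, overlaps PIGB, PIGBOS1 and RP11-139H15.5. It measured 104 CPM in the responder before therapy and 65.0 CPM in the non-responder, and 230 and 128 CPM after therapy. UNC13D (ENSG00000092929, chromosome 17, 75827225 to 75844717), which encodes the priming factor Munc13-4, was the flattest member. Its levels were 164 and 152 CPM before and 125 and 117 CPM after therapy, the narrowest range of the set. Its small excess in the responder turned under scaling to the CD3 chains, with log2 ratios of -0.21 before and -0.33 after therapy. Higher in the responder both before and after therapy were 5 members, PRF1, NKG7, CST7, RAB27A and UNC13D, as were 36.9% of all genes.

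SRGN, CTSW and LAMP1, 3 of 10 members, were lower in the responder than in the non-responder before and after therapy, as were 28.4% of all genes. SRGN (ENSG00000122862, chromosome 10, 69088106 to 69104811), the proteoglycan core that packs granule cargo, had responder levels of 262 CPM before and 434 CPM after therapy, and non-responder levels of 425 and 638 CPM. The highest SRGN level was in the non-responder library after therapy, where the monocyte and neutrophil markers summed to 9626 CPM. Monocytes, neutrophils and platelets also make SRGN, and their part in its level was not tested. CTSW (ENSG00000172543, chromosome 11, 65879809 to 65883741), a cathepsin of cytotoxic lymphocytes, stood at 1132 and 1655 CPM before and at 589 and 689 CPM after therapy. LAMP1 (ENSG00000185896, chromosome 13, 113297241 to 113323672), the lysosomal membrane protein CD107a that appears on the surface of degranulating cells, stood at 20.4 and 46.8 CPM before and at 26.0 and 36.3 CPM after therapy. It was the only member whose responder libraries both lay below both non-responder libraries, a pattern of 16.2% of all genes. Per CD3 count SRGN and UNC13D showed this pattern as well.

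Counted together, 2 of the 10 members were at least 2-fold apart before therapy, PRF1 higher and LAMP1 lower in the responder, against 20.4% of 12361 genes that reached 5 CPM in the pair (11.5% higher and 8.93% lower). With counts scaled to the CD3 chains, 0 were higher and 3 lower by at least 2-fold, with log2 ratios of -1.19 for GNLY, -1.02 for SRGN and -1.52 for LAMP1. The share of all genes was not computed with that scaling. After therapy 1 member, PRF1, was at least 2-fold apart, and it was higher, against 14.6% of 12434 genes (5.79% higher and 8.85% lower). Over the members the median log2 ratio was 0.03 before therapy, beside 0.06 for all genes, and 0.69 after therapy, beside 0.07 for all genes. Scaling to the CD3 chains turned the median before therapy to -0.30 and gave 0.27 after therapy. That scaling moved the median of all genes by -0.32 before and -0.42 after therapy.

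**Figure D2:**
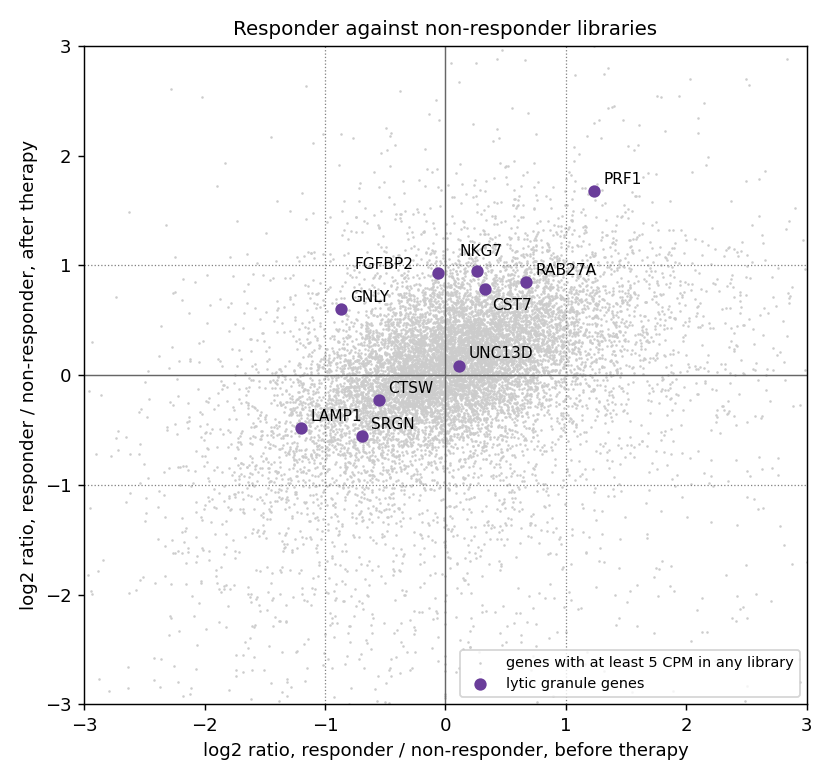
Log2 ratio of the responder to the non-responder library before therapy (horizontal) against the same ratio after therapy (vertical) for the lytic granule genes (purple) and all genes with at least 5 CPM in any library (grey, drawn within the axis range); dotted lines mark 2-fold. PRF1 lies beyond 2-fold on both axes at 1.24 and 1.68, GNLY lies at -0.86 and 0.60, and LAMP1 and SRGN lie on the negative side of both axes.

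The second comparison set libraries from after therapy against those from before. Of the 10 members, 7 were lower after therapy in both the responder and the non-responder, against 30.2% of all genes with at least 5 CPM in any library, and 2 were higher in both, against 38.3% of all genes. FGFBP2 showed the widest gap, with 432 CPM before and 174 CPM after therapy in the responder and 452 and 91.3 CPM in the non-responder. That was 2.49-fold lower in the responder (log2 ratio -1.31, interval -1.34 to -1.29) and 4.96-fold lower in the non-responder (-2.31, interval -2.34 to -2.28). FGFBP2 was the only member at least 2-fold lower in both, as were 2.42% of all genes. With library size scaling CTSW was too, at log2 ratios of -1.05 and -1.30.

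GNLY was 1.30-fold lower after therapy in the responder and 3.58-fold lower in the non-responder. NKG7 was 1.65-fold lower in the responder and 2.65-fold lower in the non-responder, and CTSW 1.92-fold and 2.40-fold lower. For GNLY, NKG7, CTSW, FGFBP2 and UNC13D both libraries from after therapy lay below both from before therapy, which held for 20.3% of all genes. For UNC13D this was lost per CD3 count, at 0.102 in the non-responder after therapy against 0.0894 in the responder before it. PRF1 differed less. It was 1.08-fold lower after therapy in the responder, a direction that turned under scaling to the CD3 chains (log2 ratio 0.14), and 1.47-fold lower in the non-responder.

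RAB27A and SRGN went the other way. RAB27A was 2.22-fold higher after therapy in the responder (log2 ratio 1.15, interval 1.12 to 1.19) and 1.97-fold higher in the non-responder (0.98, interval 0.93 to 1.03). SRGN was higher by log2 ratios of 0.72 and 0.59. Both members stood higher in the 2 libraries from after therapy than in the 2 from before, as did 26.1% of all genes. For SRGN the responder after therapy (434 CPM) and the non-responder before it (425 CPM) differed little, and per CD3 count their order turned, at 0.281 against 0.289. LAMP1 was 1.28-fold higher after therapy in the responder and 1.29-fold lower in the non-responder.

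In the responder 2 members were at least 2-fold apart between the times, RAB27A higher and FGFBP2 lower, against 13.2% of 12265 genes (8.5% higher and 4.69% lower). In the non-responder 4 were, all lower after therapy: GNLY, NKG7, CTSW and FGFBP2. With counts scaled to the CD3 chains, 3 were lower and 1 higher, since CTSW stood at a log2 ratio of -0.91 and RAB27A at 1.33. With TMM normalisation the share of all genes at least 2-fold apart in the non-responder was 23.9%, with 15.6% of 12641 genes higher and 8.25% lower. That share was not computed with the CD3 scaling. The members had a median log2 ratio of -0.34 in the responder and -0.67 in the non-responder, beside 0.07 for all genes in each. The monocyte and neutrophil markers were 9626 CPM in the non-responder after therapy against 217 CPM before, and CD3 chain levels 1151 against 1471 CPM. The 12 NK markers summed to 1081 CPM after against 840 CPM before therapy in the non-responder, and to 1005 against 1229 CPM in the responder. Without TYROBP and FCER1G, set aside after their values were seen, the sums were 532 against 747 CPM and 893 against 1113 CPM. Not all of these markers were lower after therapy, and the part of NK cells was not tested. With counts scaled to the CD3 chains, the member medians were -0.09 and -0.31, while the median of all genes moved by 0.25 and 0.35.

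**Figure D3:**
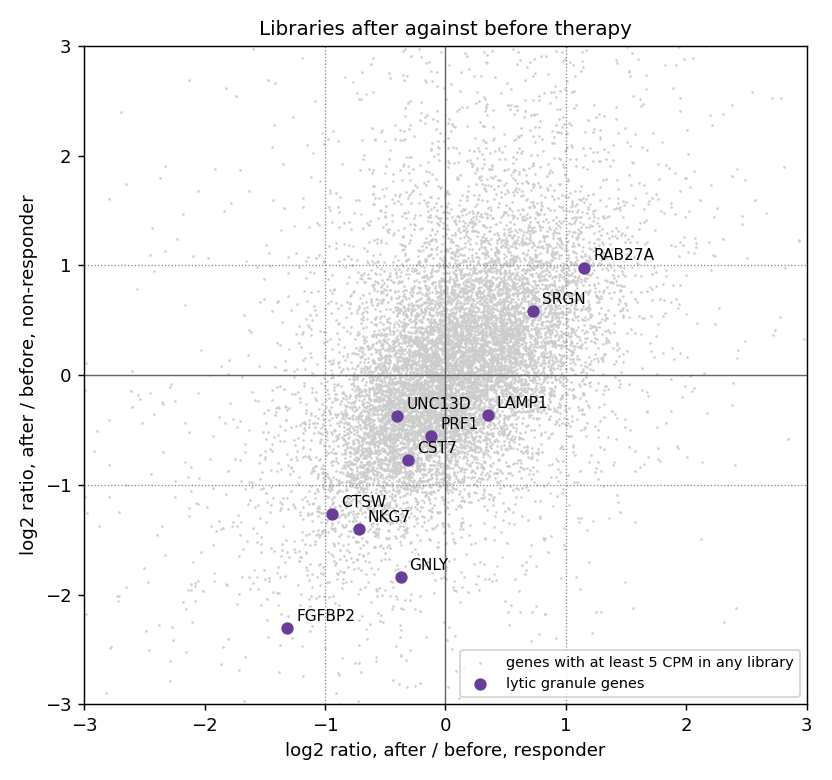
Log2 ratio of the library after therapy to the library before therapy in the responder (horizontal) and in the non-responder (vertical) for the lytic granule genes (purple) and all genes with at least 5 CPM in any library (grey, drawn within the axis range); dotted lines mark 2-fold. FGFBP2 lies lowest at -1.31 and -2.31, GNLY lies at -0.37 and -1.84, and RAB27A and SRGN lie on the positive side of both axes.

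Ratios between members of the same library do not depend on the scaling. Per length, GNLY was 1.34 times the PRF1 level in the responder and 5.73 times in the non-responder before therapy, and 1.12 times and 2.36 times after therapy. The non-responder library before therapy thus held the most granulysin RNA per perforin RNA, and both responder libraries the least. SRGN was 0.338 and 1.29 times the PRF1 level before therapy, and 0.605 and 2.85 times after therapy. CTSW stood at 1.03 and 3.56 times PRF1 before and at 0.583 and 2.18 times after therapy. All 9 other members were lower relative to PRF1 in the responder than in the non-responder at both times, since PRF1 had the highest log2 ratio of the set in both pairs. NKG7 and CST7 kept a steadier proportion to each other. Their centred log2 levels differed by a root mean square of 0.27 over the 4 libraries, the smallest difference of any pair of members. RAB27A and FGFBP2 differed the most, by 1.46.

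**Figure D4:**
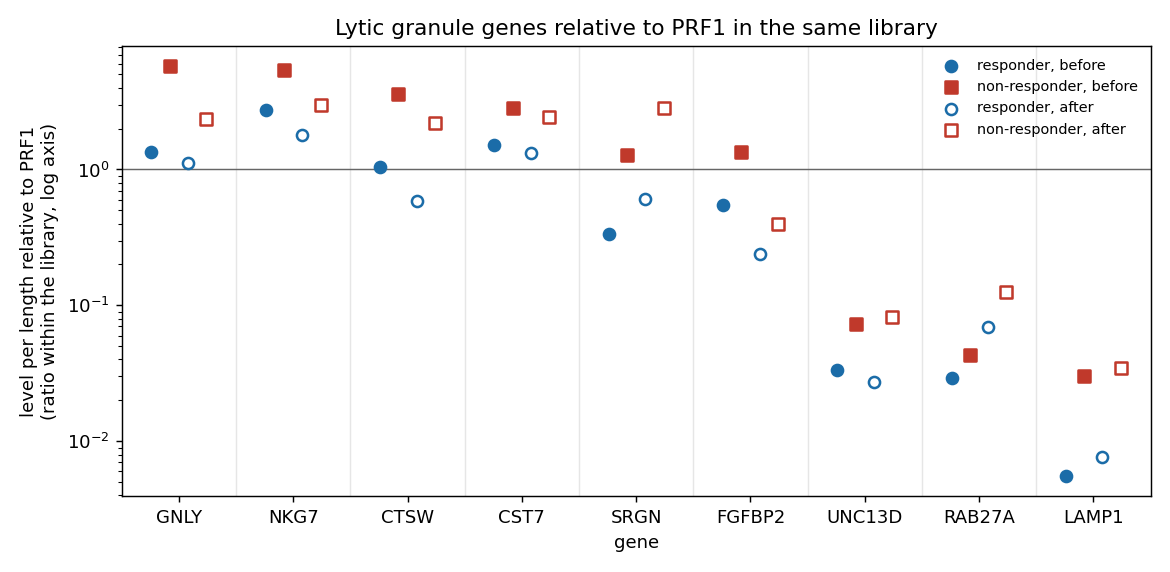
Level per length of each other lytic granule gene relative to PRF1 in the same library, on a log axis; each point is 1 library, filled before and open after therapy, and the line marks equal levels. GNLY is 5.73 times PRF1 in the non-responder before therapy and 1.12 to 2.36 times in the other libraries, and LAMP1 is at most 0.0345 times PRF1.

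Response and time were then tested over all 4 libraries in an additive model with edgeR's quasi-likelihood test, which has 1 residual degree of freedom. With a threshold of 0.05 on the adjusted p, 0% of 24113 genes passed for response, and none of the members, whose adjusted p lay between 0.558 and 0.951. At an unadjusted p under 0.05 stood 3 members for response, among 2119 genes in all. PRF1 was higher in the responder libraries by 1.46 ± 0.204 (log2 ratio ± SE, edgeR adjusted p = 0.558) and RAB27A by 0.76 ± 0.180 (edgeR adjusted p = 0.558; 0.099 without the responder after therapy, in a fit with no time term), while SRGN was at -0.63 ± 0.171 (edgeR adjusted p = 0.558). GNLY gave -0.13 ± 0.418 (edgeR adjusted p = 0.951), the widest error of the set. DESeq2 on the same design called 4.63% of genes (2.24% higher and 2.38% lower), and PRF1 alone among the members (adjusted p = 2.53e-05), while limma-voom called none of the members and 0% of all genes.

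For time, edgeR called 0% of 24113 genes, and the members' adjusted p lay between 0.409 and 0.997. FGFBP2 was at -1.81 ± 0.316, CTSW at -1.10 ± 0.187, NKG7 at -1.06 ± 0.244 and RAB27A at 1.07 ± 0.181 (log2 ratio ± SE, edgeR adjusted p = 0.409 for each). These and SRGN were the 5 members at an unadjusted p under 0.05, among 2732 genes in all. DESeq2 called the first 4, FGFBP2, CTSW and NKG7 lower and RAB27A higher after therapy, against 7.16% of all genes (5.04% higher and 2.11% lower). limma-voom called none of the members and 2 genes in all, 0.00829% of those tested. Where nothing says that libraries of a group came from separate donors, such p-values reflect the spread among 4 libraries and no more.

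Other genes of the granule pathway were described through 5 lists. The DESeq2 calls in them stand beside 4.63% of all genes called for response and 7.16% for time. The granzymes, the proteases that perforin delivers, were the list most like PRF1: each of the 5 was higher in the responder before and after therapy, with medians of 0.57 before and 1.13 after therapy. Before therapy the log2 ratios of GZMH (0.16) and GZMM (0.06) were small. Scaling to the CD3 chains moves ratios of that pair by -0.32, which turns the direction of both. At least 2-fold higher were 1 of them before therapy, GZMK, against 11.5% of all genes, and 4 after therapy, GZMA, GZMB, GZMH and GZMM, against 5.79% of all genes. These counts depend on the scaling. The CD3 shift before therapy takes GZMK under 2-fold. After therapy that scaling moves ratios by -0.42, which takes GZMA, GZMH and GZMM under 2-fold but not GZMB. The shares of all genes were not computed with it. GZMB, the main apoptosis-inducing granzyme, stood at 1299 and 875 CPM before and at 866 and 317 CPM after therapy. edgeR called none of the 5 for response or time, with 3 at an unadjusted p under 0.05 in each. Of all 24113 genes, 2119 for response and 2732 for time were at such a p. DESeq2 called GZMB higher in the responder libraries, and GZMB and GZMH lower and GZMK higher after therapy.

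The 25 docking and fusion genes had medians near 0, of 0.14 before and -0.15 after therapy in responder against non-responder. Only 1 of the 25 was at least 2-fold apart before therapy, against 20.4% of all genes (8.93% lower), and none was after therapy, against 14.6%. That gene was VAMP2, a vesicle SNARE of the granule, which was lower in the responder. It stood at 199 against 415 CPM before and at 150 against 247 CPM after therapy. CORO1A, an actin regulator, measured 1018 and 919 CPM in the responder and 561 and 563 CPM in the non-responder. STX11, the syntaxin that receives the granule at the membrane, stood at 20.6 and 29.5 CPM before and 46.9 and 85.6 CPM after therapy. edgeR called none of the 25 for either term, with 7 at an unadjusted p under 0.05 for response and 8 for time. Of all 24113 genes, 2119 and 2732 were at such a p. DESeq2 called CORO1A higher and VAMP2 lower in the responder libraries, and STX11 and VAMP4 among those higher after therapy.

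Of the 20 lysosomal membrane and sorting genes, 2 were at least 2-fold higher and 1 lower in the responder before therapy, and 1 higher and 3 lower after it, beside shares of all genes of 11.5% and 8.93% before and 5.79% and 8.85% after therapy. M6PR, a mannose 6-phosphate receptor that sorts granzymes to the granule, measured 394 and 387 CPM in the responder and 176 and 241 CPM in the non-responder. TFE3, a transcription factor of lysosomal genes, was lower by more than 2-fold at each time, at 6.53 and 10.1 CPM in the responder and 15.4 and 21.1 CPM in the non-responder. NPC2, a lysosomal cholesterol carrier, stood at 37.9 against 98.8 CPM after therapy, and NPC1, its membrane partner, went the other way at 159 against 79.0 CPM. edgeR called none of the 20 for either term, with 4 at an unadjusted p under 0.05 for response and 2 for time. Of all 24113 genes, 2119 and 2732 were at such a p. DESeq2 called M6PR higher in the responder libraries and LAMP2 higher after therapy.

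The cathepsins, cystatins and granule serpins split. CTSC, the protease that activates granzymes and that CST7 inhibits, was higher in the responder, with 462 and 394 CPM, than in the non-responder, with 196 and 236 CPM. After therapy 6 of 15 genes of this list were at least 2-fold lower in the responder, against 8.85% of all genes, and the median was -0.62. They included CTSL at 0.808 against 25.4 CPM, CSTA at 5.63 against 45.6 CPM, CST3 at 41.1 against 194 CPM and CTSH at 24.3 against 88.4 CPM. CST3 is also on the monocyte and neutrophil marker list, whose sum there was 9626 CPM in the non-responder against 1987 CPM, and the part of those cells was not tested. edgeR called none of the 15, with 5 at an unadjusted p under 0.05 for response and 6 for time. Of all 24113 genes, 2119 and 2732 were at such a p. DESeq2 called CTSC higher and CST3, CSTA and CTSH lower in the responder libraries, and CST3, CSTA, CTSH, CTSO and CTSS higher after therapy. SERPINB9, the inhibitor that shields the killer cell from its own granzyme B, lay between 78.4 and 111 CPM.

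**Figure D5:**
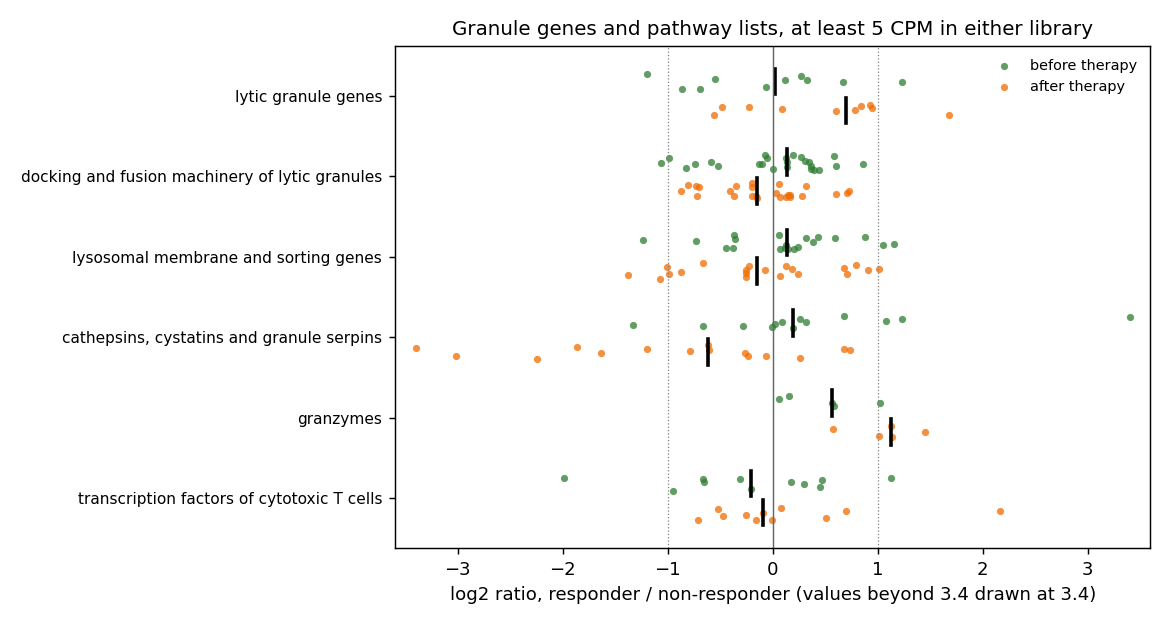
Log2 ratio of the responder to the non-responder library before (green) and after (orange) therapy for the lytic granule genes and 5 pathway lists; each point is a gene with at least 5 CPM in either library of the pair, black bars are medians, and values beyond the axis are drawn at its edge. The granzyme medians are 0.57 and 1.13, the docking and fusion genes centre at 0.14 and -0.15, and 6 of the 15 cathepsin, cystatin and serpin genes lie beyond 2-fold on the negative side after therapy.

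Among 4362 genes with at least 50 CPM on average, those with the centred log2 profile closest to PRF1 over the 4 libraries were CDK2AP2, LBH, S1PR4, PRR5L and KLRG1. The root mean square difference was 0.17 for CDK2AP2 and 0.24 for KLRG1, an inhibitory receptor of late effector cells, which stood at 358, 215, 462 and 161 CPM in the responder and non-responder before and the responder and non-responder after therapy. The genes closest to GNLY were CEP78, TMED4, SDF2L1, MVD and SPON2. CEP78 differed by 0.10, with 117, 182, 89.6 and 52.0 CPM in the same order, and SPON2 by 0.18, with 191, 259, 144 and 77.8 CPM. With 4 libraries, many genes lie close to any profile.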

How the data were processed

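Per the file headers, each deposited table lists Ensembl genes with a raw count, a symbol, coordinates and a length. Per the submitters' processing notes, bcl2fastq 1.8.4, TopHat2 and hg38 were used. How reads were counted, and whether by strand, is not given in the sources used here, and overlapping genes may share reads. Per the labels' protocols, 1 ng of RNA was amplified, with no stated molecular identifiers. The organism label names mouse, but the files hold human genes.

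Of 64253 genes, 4146 off the main chromosomes and 617 sex-informative genes were left out. Counts were scaled with edgeR 4.0.16 (TMM) in R 4.3.3. Ratios had 0.5 added as a prior count, with conditional binomial (Clopper-Pearson) intervals. The additive model used filterByExpr and Benjamini-Hochberg adjustment, with DESeq2 1.42.0 and limma 3.58.1 as alternatives. It was also run on simulated counts, with an outcome not reported here. The changes planted there were larger than the members' ratios in this model, so those runs do not cover effects of their size. The SE is the ratio's size over the square root of F. Examples in lists are up to 4 genes with the largest ratio in each responder pair, plus genes called by a test. SERPINB9 was added after its values were seen. Genes named as most alike are the 5 with the smallest root mean square difference of centred log2 CPM. The members and lists were chosen with earlier results of these data known. Some list genes are not reported here by name.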

Additional observations from a re-analysis of the deposited data

Results flagged for a closer look

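For 3 members the same comparison ran in opposite directions in 2 settings, with 1 library on each side, and the difference was not tested. For GNLY the log2 ratio of responder to non-responder was -0.86 before and 0.60 after therapy. FGFBP2 was slightly lower in the responder at first (-0.065) and higher after it (0.93), and its value before therapy lay close to 0. With library size scaling that value was 0.019, so FGFBP2 then had the same direction at both times. Of all genes with at least 5 CPM in any library, 34.3% had opposite directions at the 2 times. LAMP1 was higher after therapy in the responder (0.35) and lower in the non-responder (-0.36). Of all genes, 38.3% were higher and 30.2% lower after therapy in both, so a split direction was common.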

How the results depend on the processing

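Each group held 1 library, and the spread between patients is unknown. The widest counting interval of a member ratio was that of LAMP1 before therapy (-1.28 to -1.11). Such intervals take each count as a separate draw. The RNA was amplified with no stated molecular identifiers, so they may be too narrow. No paired analysis was possible because each group held 1 library and the columns carry no shared replicate numbers. In the following, the values of a median are log2 ratios, called moved when they shifted by more than 0.05, and the cause was not tested unless named. For responder against non-responder before therapy, the member median was 0.11 with library size scaling, -0.30 with CD3 chain scaling and 0.11 over genes with at least 50 CPM, where fewer members remain and 1 was at least 2-fold apart, and 5 were at least 1.5-fold apart. After therapy, the median was 0.27 with CD3 chain scaling and 0.79 over genes with at least 50 CPM, and 6 were at least 1.5-fold apart. For after against before therapy in the responder, the median was -0.45 with library size scaling and -0.089 with CD3 chain scaling, and 5 were at least 1.5-fold apart. In the non-responder it was -0.31 with CD3 chain scaling and -0.77 over genes with at least 50 CPM, and 7 were at least 1.5-fold apart. The share of all genes at least 1.5-fold apart was not computed, so these counts do not set the members apart from other genes. With library size or CD3 chain scaling, 1 member, PRF1, kept both responder libraries above both non-responder libraries. Directions turned under CD3 chain scaling for NKG7 (-0.057) and UNC13D (-0.21) before therapy, UNC13D after therapy (-0.33) and PRF1 in the responder over time (0.14), and under library size scaling for FGFBP2 before therapy (0.019). DESeq2 called 1 member for response and 4 for time, against 0 in edgeR. With 3 libraries the additive model has no residual degrees of freedom, so fits without 1 library also dropped the other term, and compared 1 library, assumed to vary like the rest, with 2. These different fits called 0 members as well, which says nothing about stability. In them the response ratio ranged from -1.04 to 0.80 for GNLY, -0.64 to 1.73 for FGFBP2, -0.051 to 1.35 for NKG7, -0.99 to 0.32 for CTSW and -0.11 to 0.30 for UNC13D. The direction was the same each time for PRF1 (1.18 to 1.74), RAB27A (0.099 to 1.36), CST7 (0.18 to 0.95), SRGN (-1.02 to -0.29) and LAMP1 (-1.03 to -0.65). The time ratio ranged from -1.31 to 0.51 for PRF1 and -0.58 to 0.61 for LAMP1. The time ratio of LAMP1, -0.01 in edgeR, was 0.0125 with DESeq2 size factors and 0.0124 in DESeq2.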

Other observations

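Among 11 transcription factors of cytotoxic and memory T cells, 1 was at least 2-fold higher and 1 at least 2-fold lower in the responder before therapy, and 1 higher and 0 lower after it. The shares of all genes were 11.5% and 8.93% before and 5.79% and 8.85% after therapy. EOMES, a T-box factor of effector and memory CD8 cells, stood at 208 against 95.2 CPM before and at 356 against 220 CPM after therapy. BHLHE40, a stress-responsive repressor, stood at 105 against 418 CPM before and at 154 against 222 CPM after therapy, and IKZF2 at 18.8 against 4.20 CPM after therapy. RUNX3, which drives cytotoxic genes in CD8 cells, was highest in the non-responder before therapy at 706 CPM, against 352 to 365 CPM in the other libraries. ZNF683, the factor Hobit, stood at 226 and 163 CPM before and at 42.9 and 59.4 CPM after therapy. edgeR called none of the 11 for response or time, with 2 and 3 at an unadjusted p under 0.05. Of all 24113 genes, 2119 and 2732 were at such a p, and DESeq2 called 4.63% and 7.16% of all genes. DESeq2 called EOMES higher and BHLHE40 lower in the responder libraries, and EOMES higher and ZNF683 lower after therapy.

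The entry of PROM1, the gene of the stem cell antigen CD133, overlaps FGFBP2 by 6234 bases on chromosome 4. Its counts were 10.5%, 10.9%, 9.38% and 10.3% of the FGFBP2 counts in the responder and non-responder before and the responder and non-responder after therapy, while the FGFBP2 level itself varied 4.96-fold. Where on PROM1 these reads lie was not tested. Of the entries that overlap RAB27A, PIGB shares 154 bases with it and varied little, between 31.0 and 34.9 CPM, as did PIGBOS1, between 11.3 and 16.2 CPM, while RAB27A varied 3.54-fold. The third such entry, RP11-139H15.5, varied between 3.42 and 10.3 CPM, was higher before therapy, and equalled 15.8% of the RAB27A counts in the earlier non-responder library, against 5.55% or less elsewhere. CTSW shares a base with FIBP, and the entries within GNLY and SRGN held at most 0.133% of their counts.

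CTSL, the cathepsin that CST7 also restrains, had 5.56 CPM in the responder and, from 2 counts, 0.0307 CPM in the non-responder library before therapy (log2 ratio 7.28, interval 5.64 to 10.55). After therapy the order was the opposite, at 0.808 against 25.4 CPM.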
